A study of Mus musculus with 35 samples.

Results

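The 9 haematopoietic transcription regulators Runx1, Gata2, Tal1, Lmo2, Spi1, Fli1, Erg, Meis1 and Cbfa2t3 were followed by ATAC-seq, an assay in which the Tn5 transposase cuts and tags open chromatin. Every 2-kb tile from 20 kb before to 20 kb after each gene (GRCm38) was taken, which gave 624 tiles of the 1362779 in the deposited table. The cells were mouse embryonic stem cells grown in 2i/Lif (D0) and cells taken on day 1 and day 2 (D1, D2) of their conversion to epiblast-like cells (EpiLC). Mouse lines with all 3 Tet genes deleted (TET_KO) or with Dnmt1, Dnmt3a and Dnmt3b deleted (DNMT_KO) were each compared with their own parental wild-type line (TET_WT, DNMT_WT). Of the 12 combinations of a line with a day, 11 have 3 libraries and TET_KO at D2 has replicates 1 and 3, which makes 35. Each genotype is 1 cell line, so a difference between a knockout and its parent cannot be told apart from other differences between these lines. The labels do not say that replicates were separate cultures, and the p-values then measure only the spread between these libraries.

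The TET enzymes oxidise methylated cytosine on the way to its removal, and the DNMT enzymes place and maintain methylation at CpG sites. Promoters rich in CpG are mostly unmethylated and open in many cell types, whether or not the gene is active, while CpG-poor promoters are usually opened by factors of the tissue in which the gene works. The 9 genes encode or serve the factors that specify blood from mesoderm: GATA2, the bHLH protein TAL1 and its bridging partner LMO2 bind DNA together with the ETS factors FLI1 and ERG, RUNX1 drives the emergence of blood cells from endothelium, and the ETS factor SPI1 (PU.1) directs myeloid and B cell fate. MEIS1, a homeodomain partner of HOX proteins, and CBFA2T3 (ETO2), a corepressor in TAL1 complexes, are active in blood stem and progenitor cells. None of the cells studied here is a blood cell. The values are means over a culture, so a few cells open at a site and many cells slightly open cannot be told apart.

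The depth was 3204696 to 23682696 reads in tiles per library. The highest 1% of tiles held 4.94% to 8.02% of these reads. Libraries of D1 held 5.63% to 46.8% mitochondrial reads and were scaled to another library total than those of D0 and D2, so D1 is given as levels and D1 was never tested against D0. Markers of naive pluripotency were accessible, with a median window at percentile 79.2 of protein-coding genes over 14 genes, and those of feeder fibroblasts were lower, at 35.6 over 10 genes. Between D0 and D2 the windows of 5, 6, 10 and 8 of the 14 naive genes were called lower in TET_WT, TET_KO, DNMT_WT and DNMT_KO. None was called higher (limma, adjusted p below 0.05). Of all windows, 0.893%, 1.11%, 3.16% and 1.85% were called in either direction. Percentiles below are ranks within a library, for a tile among the 1227228 autosomal and X tiles with reads at D0 or D2, and for a window (a gene and 20 kb each side, as log2 of the mean RPKM) among 21178 protein-coding genes.

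RefSeq promoters of GRCm38.p6, from 250 bases before to 50 after a start, were at hand for 12 starts of 6 of the 9 genes. No entry was present for Lmo2, Spi1 and Fli1. The following 5 are printed because they show the range from CpG-rich to CpG-poor and from open to closed, 5′ to 3′ on the gene's strand, with each CpG in capitals. The 2 Runx1 promoters are at chr16:92697280-92697579 (proximal) and chr16:92826025-92826324 (distal), both on the minus strand, the second Gata2 promoter is at chr6:88198414-88198713 on the plus strand, and the Erg promoters are at chr16:95586544-95586843 (most upstream) and chr16:95530316-95530615 (internal) on the minus strand.
Runx1 proximal: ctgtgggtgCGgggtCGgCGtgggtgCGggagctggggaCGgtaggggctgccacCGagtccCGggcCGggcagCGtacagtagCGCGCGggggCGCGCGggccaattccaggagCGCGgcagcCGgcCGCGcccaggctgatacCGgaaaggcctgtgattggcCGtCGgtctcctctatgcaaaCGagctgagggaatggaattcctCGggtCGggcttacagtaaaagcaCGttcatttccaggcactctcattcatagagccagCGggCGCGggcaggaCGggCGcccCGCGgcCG
Runx1 distal: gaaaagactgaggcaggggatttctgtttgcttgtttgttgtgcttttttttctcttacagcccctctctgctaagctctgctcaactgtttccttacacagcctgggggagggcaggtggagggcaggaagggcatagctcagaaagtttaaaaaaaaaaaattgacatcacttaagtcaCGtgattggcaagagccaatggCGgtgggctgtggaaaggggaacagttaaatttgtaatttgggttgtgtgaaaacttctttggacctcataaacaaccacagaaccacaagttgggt
Gata2 second: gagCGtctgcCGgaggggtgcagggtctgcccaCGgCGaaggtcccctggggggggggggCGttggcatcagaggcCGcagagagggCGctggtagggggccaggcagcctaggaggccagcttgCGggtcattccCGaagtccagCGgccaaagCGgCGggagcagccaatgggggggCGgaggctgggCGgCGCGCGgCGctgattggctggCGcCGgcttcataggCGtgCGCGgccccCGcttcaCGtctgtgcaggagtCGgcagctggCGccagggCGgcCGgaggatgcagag
Erg most upstream: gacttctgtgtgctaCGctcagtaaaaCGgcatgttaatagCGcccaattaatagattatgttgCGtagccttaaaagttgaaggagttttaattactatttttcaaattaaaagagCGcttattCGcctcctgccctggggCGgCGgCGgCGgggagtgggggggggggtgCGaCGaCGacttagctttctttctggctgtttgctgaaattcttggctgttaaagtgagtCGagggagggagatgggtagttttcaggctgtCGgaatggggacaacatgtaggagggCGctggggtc
Erg internal: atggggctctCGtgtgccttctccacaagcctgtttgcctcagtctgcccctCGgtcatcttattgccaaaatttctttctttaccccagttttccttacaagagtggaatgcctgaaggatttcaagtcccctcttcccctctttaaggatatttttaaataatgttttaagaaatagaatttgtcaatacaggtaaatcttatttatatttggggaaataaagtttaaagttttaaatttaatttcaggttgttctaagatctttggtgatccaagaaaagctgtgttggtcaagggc

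The proximal Runx1 promoter held 35 CpG in its 300 bases and the distal one 2. The second Gata2 promoter held 29, the most upstream Erg promoter 16 and the internal Erg promoter 2. Among the promoters not printed, the first Gata2 start had 32, the 2 Tal1 starts 11 and 22, Meis1 15, the 2 Cbfa2t3 starts 53 and 10, and the third Erg start 4. Letter strings that these factors are known to read were searched on both strands. The string AGATAA, read by GATA factors, was in the first Tal1 promoter and the third Erg promoter and in 9.56% of 20365 promoters. The string CCGGAA, read by ETS factors, was in the proximal Runx1, the Meis1 and the 10-CpG Cbfa2t3 promoter and in 19.2% of all. The string TGTGGT, read by RUNX factors, was in the distal Runx1 and the Meis1 promoter and in 14.6% of all. The string CCAAT, a general promoter element, was in 7 of the 12 and in 38.0% of all promoters. These matches describe letters and not binding.

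The starts ranged from open in nearly all libraries to closed in nearly all, with some between, and naive cells already showed this range. Of the 6 members with annotated starts, 5 had a start with a median percentile in the highest 10%. Of 16688 protein-coding genes with a start, 67.7% had one. Runx1 held an open start and a mostly closed one in 1 gene. The tile with its proximal start (chr16:92696001-92698000, inside the gene) held 71, 25 and 44 reads in the 3 TET_WT libraries at D0, 23, 37 and 29 in TET_KO, 24, 11 and 17 in DNMT_WT and 24, 22 and 21 in DNMT_KO. It was in the highest 10% of tiles in 35 of 35 libraries, with a median percentile of 98.9 and a lowest of 91.7. The tile with the distal start (chr16:92826001-92828000), from which the isoform of definitive blood cells is made, held 20, 6 and 8 reads in TET_WT at D0, 12, 7 and 3 in TET_KO, 7, 2 and 9 in DNMT_WT and 9, 2 and 2 in DNMT_KO. Its median percentile was 59.0 and it was in the highest 10% in 3 of 35 libraries. In every group the mean of the proximal tile was above that of the distal tile.

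Tal1 was open at its annotated starts, both of which lie in the tile chr4:115056001-115058000. That tile had a median percentile of 98.9 and was in the highest 10% in 34 of 35 libraries, with 64, 22 and 49 reads in TET_WT at D0 and 31, 23 and 17 in TET_KO. Gata2 was open at its second start (chr6:88198001-88200000), with a median of 98.5 and 33 of 35 libraries in the highest 10%; a long noncoding RNA gene, Gm38708, starts in the same tile. Its first start (chr6:88192001-88194000) was lower and more variable despite 32 CpG, with a median of 86.2, a range of 16.8 to 98.4 and 15 of 35 libraries in the highest 10%. Meis1 had its start tile (chr11:19018001-19020000) at a median of 98.0 and in the highest 10% in 33 of 35 libraries. Cbfa2t3 had its 53-CpG start (chr8:122678001-122680000) at 98.4 and 34 of 35, and its 10-CpG start (chr8:122698001-122700000) at 93.8 and 23 of 35.

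Erg was the member with no open annotated start. Its most upstream start tile (chr16:95586001-95588000) had a median percentile of 66.6 and was in the highest 10% in 4 of 35 libraries. At D0 that tile held 23, 13 and 14 reads in TET_WT and 9, 9 and 9 in TET_KO, but 1, 4 and 5 in DNMT_WT and 0, 1 and 4 in DNMT_KO. The TET lines were higher than the DNMT lines there at D0, at mean log2 RPKM of -0.46 ± 0.19 and -0.44 ± 0.38 against -1.82 ± 1.07 and -2.40 ± 1.27 (SD, n = 3 each). The order did not hold on the later days: at D1 the means were -0.97 in TET_WT and -1.48 in TET_KO against -0.48 in DNMT_WT and -0.13 in DNMT_KO, and at D2 -1.40 and -0.34 against -0.99 and -0.78. This comparison between line families was not tested. The internal start was at 31.4 and in the highest 10% in 0 of 35 libraries, and the third at 42.5 and 1 of 35. With 16 CpG, the most upstream Erg promoter lay below the usual level of its class, in which 95.1% of 2300 protein-coding starts were in the highest 10% of tiles and the median was 98.9.

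For Lmo2, Spi1 and Fli1 the strand was not in the sources used here, so both ends of the gene are given. Both Lmo2 ends were closed, at medians of 56.8 (lower coordinate) and 64.9 (upper), in the highest 10% in 0 and 3 of 35 libraries. Fli1 was at 41.7 at its lower end and 86.9 at its upper end, in 0 and 15 of 35. Spi1 was at 84.1 at its lower end and 98.1 at its upper end, in 10 and 33 of 35. Among the members' starts with 10 or more CpG, the Erg start with 16 and the first Gata2 start lay furthest below the median of protein-coding starts of their class. Across all protein-coding genes, starts with 0 to 4 CpG had a median percentile of 56.6, with 12.7% of 5383 in the highest 10%. Those with 10 to 14 had 98.0 and 84.6% of 2077, and those with 20 or more had 99.3 and 98.0% of 7580.

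**Figure D1:**
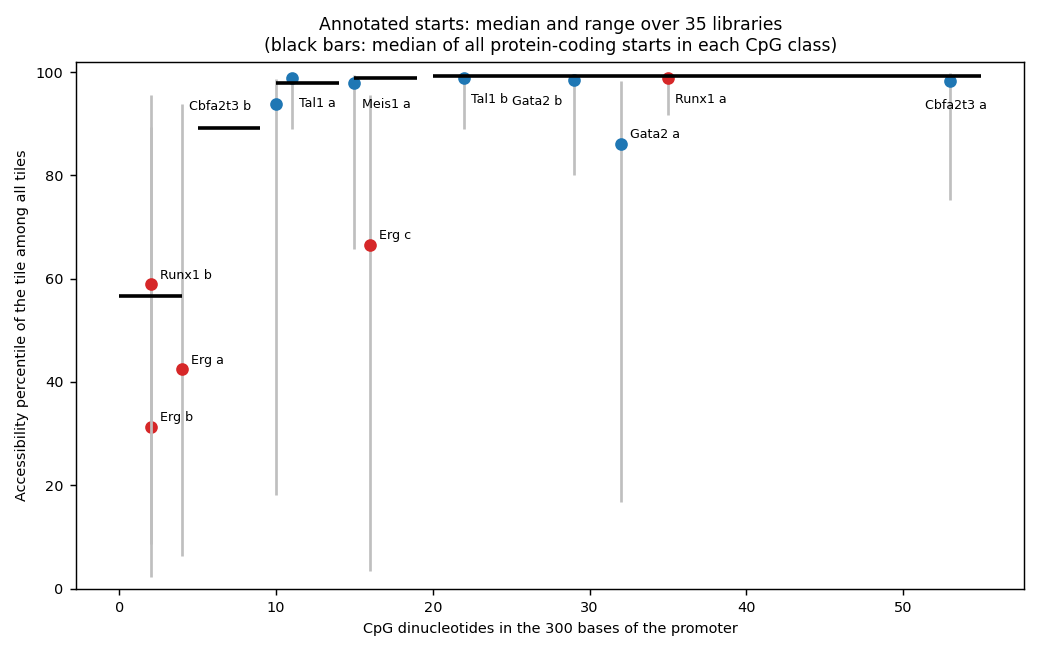
Accessibility percentile of the tile at each of the 12 annotated starts (y axis, among all tiles; point, median; grey line, range over 35 libraries) against the number of CpG in the 300-base promoter (x axis). Letters a, b and c number a gene's starts by rising coordinate, so Runx1 a is the proximal start and Erg c the most upstream one; Runx1 and Erg are in red, and black bars are medians of all protein-coding starts per CpG class, from 56.6 at 0 to 4 CpG to 99.3 at 20 or more.

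Over the whole windows, the 9 genes spread from well above to well below the middle of protein-coding genes. The order of mean levels over 35 libraries was Cbfa2t3 (-0.08 log2 RPKM, median percentile 82.9), Spi1 (-0.16, 76.4), Gata2 (-0.27, 72.7), Tal1 (-0.29, 71.6), Lmo2 (-0.73, 46.2), Meis1 (-0.83, 34.3), Fli1 (-1.05, 29.8), Runx1 (-1.11, 24.5) and Erg (-1.13, 24.4). Most neighbours in this order did not differ beyond their spread: the higher was above the lower in 24, 19 and 19 of 35 libraries for the first 3 steps, and in 23, 22 and 17 for Lmo2 over Meis1, Fli1 over Runx1 and Runx1 over Erg. The clear step lay between Tal1 and Lmo2, with Tal1 higher in 33 of 35 libraries by 0.44 ± 0.28 (SD), and Meis1 was above Fli1 in 28 of 35. At D0 Gata2, Spi1, Tal1 and Cbfa2t3 were the highest 4 in all 4 lines, and Cbfa2t3 was at rank 1 in 3 of them and at rank 4 in TET_KO. Reads per tile outside the tested tiles on chromosome 8, which carries Cbfa2t3, were 1.32, 1.36 and 1.35 times the genome's mean at D0 in the 3 lines TET_WT, DNMT_WT and DNMT_KO and 0.988 times in TET_KO, and their part in this rank was not tested.

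**Figure D2:**
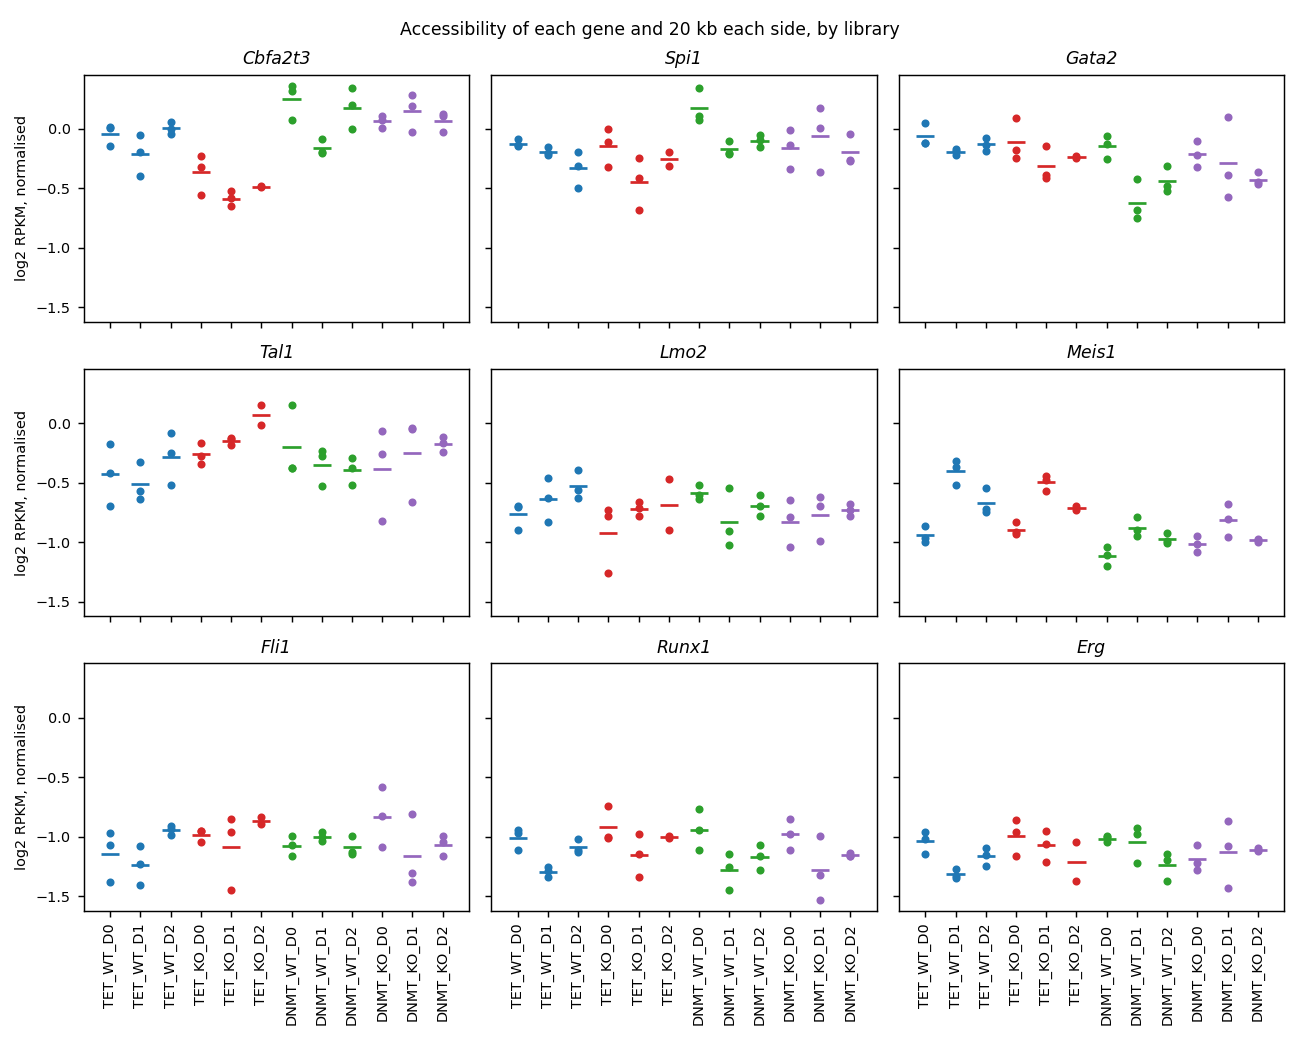
Normalised log2 RPKM (y axis) of each gene with 20 kb each side in every library (points) of the 12 groups (x axis; bars, group means), with genes in order of their mean. Cbfa2t3 ranges from -0.65 to 0.36 with the TET_KO libraries lowest, and Erg stays between -1.44 and -0.86.

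The long genes of low windows were closed along most of their length. Of 621 member tiles with reads at D0 or D2, 116 (18.7%) were in the highest 10% by their mean over all libraries. Taken per window, the median share was 16.7% for the members and 16.8% for protein-coding genes. The mean share per window of protein-coding genes was 26.6%, and the pooled 18.7% weighs long genes more. Runx1 had 5 of 134 such tiles and Erg 5 of 132, at the 20.8th and 20.9th percentile of protein-coding windows. Fli1 had 6 of 81, Lmo2 4 of 33 and Meis1 15 of 90. Gata2 had 9 of 28, Tal1 12 of 28 and Spi1 16 of 37. Cbfa2t3 stood highest by this mean with 44 of 58 (75.9%, percentile 92.6), but its share differed between lines. Ranked within each library, its mean share was 22.99%, 15.52% and 23.28% in TET_KO at D0, D1 and D2. In the groups of the other lines it was 32.18% to 66.09%. Reads per tile outside the tested tiles on its chromosome were also lower in TET_KO, and their part in this share was not tested. The remaining 3 member tiles, all in Erg, were empty at D0 and D2, and 1 of them had reads at D1.

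**Figure D3:**
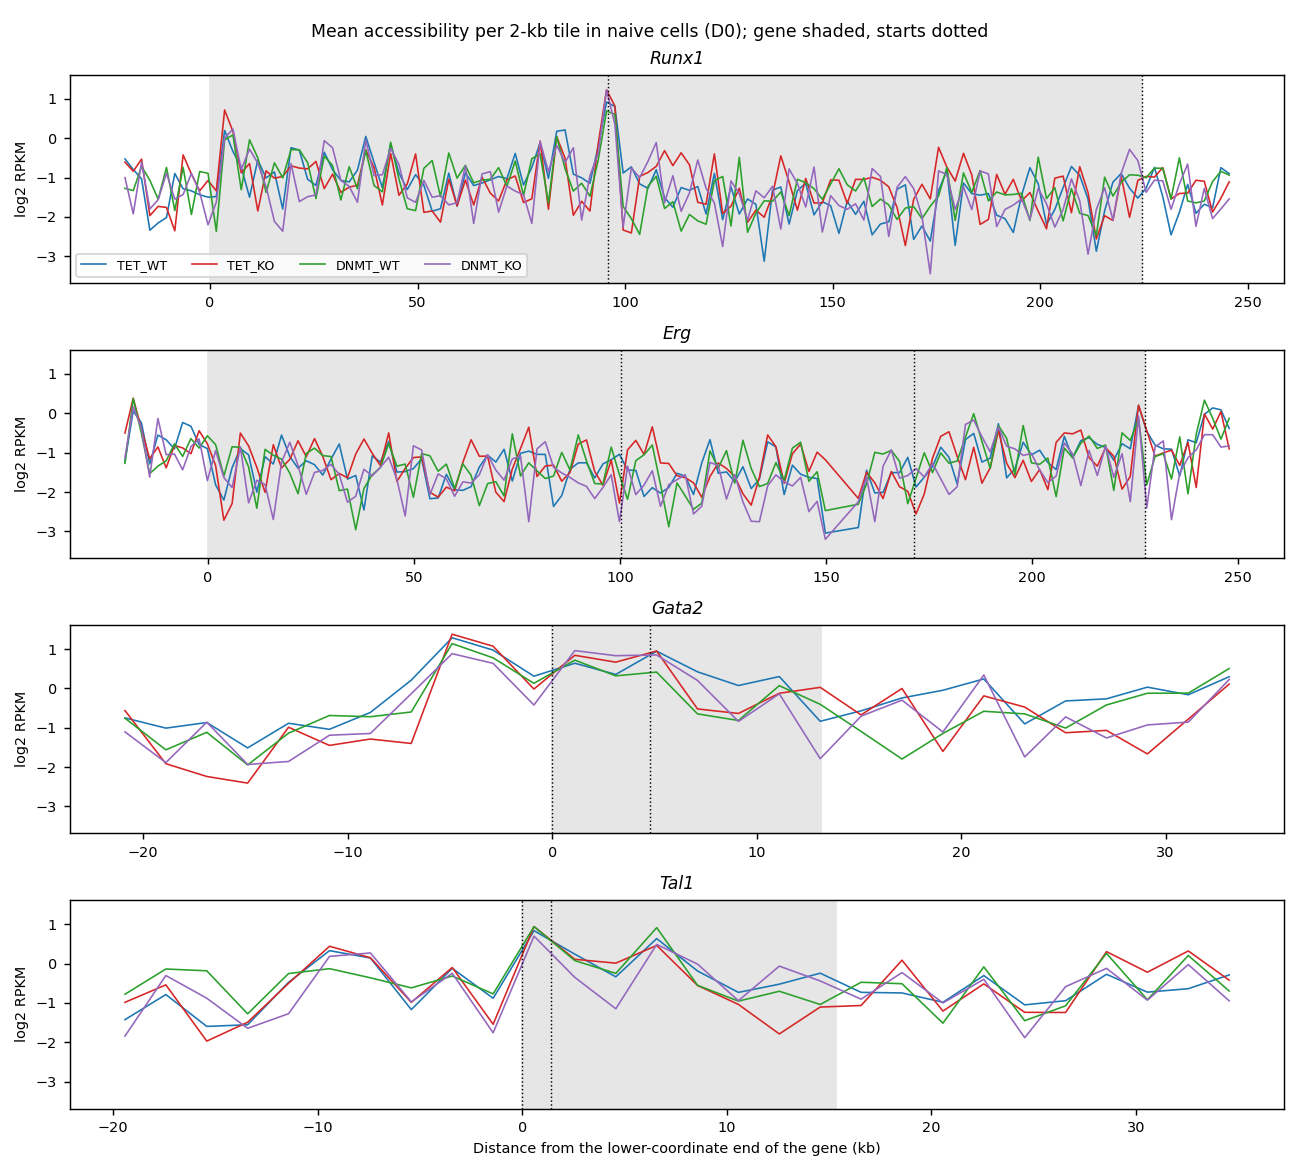
Mean normalised log2 RPKM of each 2-kb tile (y axis) in the 4 lines at D0 against the distance from the gene's lower-coordinate end in kb (x axis) for Runx1, Erg, Gata2 and Tal1, with the gene shaded and annotated starts dotted. In Runx1 the highest point in all lines is at the proximal start, at 0.69 to 1.23, and none of the 3 Erg starts has such a peak.

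The most accessible tile was the gene's own start in Runx1 and Tal1. In Meis1 it was the tile just above the start (chr11:19020001-19022000, median percentile 98.9), outside the gene body. In Gata2 it lay below the first start, within Gm38708 (chr6:88188001-88190000, 98.9, in the highest 10% in 35 of 35 libraries). In Fli1 it was inside the gene, 2.43 kb from the upper end (chr9:32540001-32542000, 97.5). In Erg it was in the flank, near the far edge of the window (chr16:95340001-95342000, 94.2). For Spi1, Cbfa2t3 and Lmo2 the highest tile belonged to a neighbouring gene: the starts of Slc39a13, a zinc transporter, and Gm39874 at chr2:91070001-91072000 (99.6), the start of Trappc2l, a vesicle tethering factor, at chr8:122610001-122612000 (99.9), and 4931422A03Rik at chr2:103992001-103994000 (97.6). These tiles held a median of 9.67%, 6.87% and 7.90% of the window's reads, against 2.70%, 1.72% and 3.03% if reads were spread evenly. The next most accessible Lmo2 tiles lay inside the gene (chr2:103968001-103970000 and chr2:103970001-103972000, medians of 96.3 and 96.2) and overlapped the noncoding gene Gm38515; they were chosen after their values were seen.

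Named blood elements were placed only by the distance in their names from the first annotated start on the gene's strand, to the nearest tile. The tile at 23 kb inside Runx1 (chr16:92802001-92804000), where its best known haematopoietic enhancer is numbered, was closed, with a median percentile of 30.4 and 1 of 35 libraries in the highest 10%, and the tiles on either side of it had 56.6 and 32.8, with 2 and 0 of 35. The tile 9.5 kb into Gata2 (chr6:88202001-88204000) had a median of 79.2 and 11 of 35, and the tiles on either side of it 90.1 and 92.8. The tile 19 kb after the Tal1 start (chr4:115074001-115076000), beyond the gene, had 91.3 and 18 of 35, and the tiles on either side of it 65.7 and 63.8. The tile 4 kb before the Tal1 start (chr4:115052001-115054000) had 90.5 and 20 of 35, between tiles at 67.9 and 62.1.

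In the line without TET enzymes the window of Cbfa2t3 was lower than in its parent, and the other 8 windows were not called. In TET_WT at D0 the Cbfa2t3 window was at 0.0065, 0.012 and -0.14 log2 RPKM in the 3 libraries, and in TET_KO at -0.32, -0.23 and -0.55. At D1 it was at -0.05, -0.40 and -0.20 in TET_WT and at -0.53, -0.59 and -0.65 in TET_KO. At D2 it was at 0.0009, -0.05 and 0.06 in TET_WT and at -0.48 and -0.49 in TET_KO. All TET_KO libraries were below all TET_WT libraries of the same day. Such a separation, in either direction, was also seen for Erg, Spi1 and Tal1 at D1. At D2 it was also seen for Runx1, Tal1, Gata2 and Fli1, so it does not set Cbfa2t3 apart on those days. The share of all windows that separate in this way is not given here, so these separations are no result about the members. Runx1, Tal1, Gata2 and Fli1 differed at D2 by 0.09, 0.35, -0.11 and 0.08. The log2 ratio of TET_KO to TET_WT in reads per tile outside the tested tiles was 0.06, 0.07, -0.17 and 0.10 on their chromosomes 16, 4, 6 and 9. The part of these shifts was not tested. The log2 difference of the Cbfa2t3 window was -0.37 ± 0.11 (SE) at D1 (limma adjusted p = 0.0256 over 48238 windows) and -0.49 ± 0.12 at D2 (adjusted p = 0.0102). The -0.33 ± 0.11 at D0 missed the threshold (adjusted p = 0.0530). Calls were made at an adjusted p below 0.05. The count of 0, 1 and 1 of 9 windows at D0, D1 and D2 stood beside 8.27%, 7.3% and 4.58% of all windows called, and 5.81% and 3.6% were called lower at D1 and D2.

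The whole of chromosome 8, which carries Cbfa2t3, was lower in TET_KO. Over 2320 windows there the median difference was -0.45, -0.48 and -0.45 at D0, D1 and D2, against 0.03, 0.04 and 0.03 on the other chromosomes, and Cbfa2t3 stood at the 74.2nd, 76.5th and 42.0th percentile of chromosome 8. Reads per tile outside the tested tiles, on chromosome 8 relative to the whole genome, were 1.30 to 1.35 as group means in TET_WT, 1.30 to 1.42 in the DNMT lines and 0.951 to 0.988 in TET_KO. With each library centred on its chromosome the Cbfa2t3 difference was 0.11 at D1 (adjusted p = 0.801) and -0.04 at D2 (adjusted p = 0.940), so the direction turned at D1 and no member window was called on any day. Over all windows the centred fit called 269 higher and 209 lower at D1 and 182 and 171 at D2. The D1 call was also lost without TET_WT replicate 1 or 3 or TET_KO replicate 2 or 3 (adjusted p = 0.188, 0.0935, 0.0678 and 0.115), the D2 call without TET_WT replicate 3 (0.0503), and a call arose at D0 without TET_KO replicate 2 (0.0371), all by limma. Without TET_KO replicate 1 or 3 at D2, which leaves 1 library, the D2 difference was -0.49 and -0.48.

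**Figure D4:**
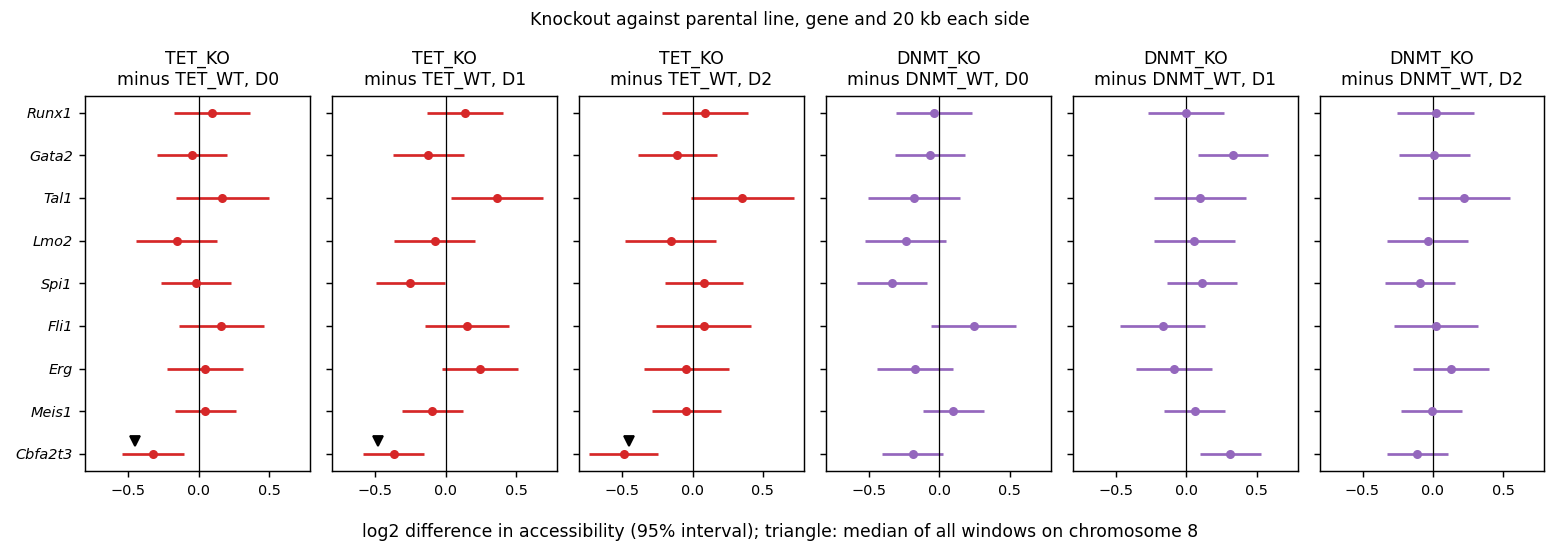
Log2 difference of each member window between knockout and parental line (x axis; bars, 95% interval) for each gene (y axis) in the 6 comparisons. Triangles give the median of the 2320 windows of chromosome 8, at -0.45, -0.48 and -0.45, and only the Cbfa2t3 intervals of the TET comparisons lie wholly below zero on all 3 days.

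Among the other members, Tal1 was higher in TET_KO than in TET_WT by 0.17, 0.36 and 0.35 at D0, D1 and D2, with 95% intervals of -0.16 to 0.50, 0.03 to 0.69 and -0.01 to 0.72 and adjusted p of 0.619, 0.212 and 0.335 by limma. It passed at D1 only in the fit of these 2 groups alone (adjusted p = 0.0481), in which Cbfa2t3 did not (adjusted p = 0.0502). The Spi1 window was lower by 0.25 at D1 (interval -0.50 to -0.01, limma adjusted p = 0.263). At an unadjusted p under 0.05, 1, 3 and 1 of the 9 windows differed, beside 20.4%, 17.94% and 16.25% of all windows. By limma voom on recovered reads, 1, 1 and 1 of the 9 were called, beside 6639, 4071 and 4567 of all 48238 windows. No member tile of 129 tested was called at D0, D1 or D2, beside 0.237%, 0.0932% and 0.135% of all 138349 tiles. Of the 129 tiles, 13, 15 and 11 had an unadjusted p under 0.05, beside 9.94%, 9.01% and 7.94% of all tiles. Voom called none of them, beside 631, 119 and 112 of all 138349 tiles. Without TET_WT replicate 3 or TET_KO replicate 1 the Cbfa2t3 tile chr8:122612001-122614000 was called lower at D0 (-2.02 and -2.11, limma adjusted p = 0.0287 and 0.0258). Without TET_WT replicate 2 or TET_KO replicate 1 the tile chr8:122618001-122620000 was called lower at D1 (-2.13 and -2.10, limma adjusted p = 0.0419 and 0.0340).

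In the line without DNMT enzymes no member window was called by limma. At D0, D1 and D2, 0 of 9 windows passed, beside 0%, 0.344% and 0% of all windows. Voom called none, beside 0, 7 and 0 of all 48238 windows. An unadjusted p under 0.05 was found for 1, 2 and 0 of the 9, beside 6.25%, 13.53% and 6.62% of all windows. The Spi1 window was lower in DNMT_KO at D0 by 0.34 (interval -0.58 to -0.09, limma adjusted p = 0.730). Cbfa2t3 and Gata2 were higher in DNMT_KO at D1 by 0.31 (0.10 to 0.53, limma adjusted p = 0.173) and 0.33 (0.08 to 0.58, limma adjusted p = 0.209), and both passed without DNMT_KO replicate 2 (0.40 with adjusted p = 0.0491, and 0.48 with adjusted p = 0.0349). No member tile was called, beside 0%, 0.00723% and 0.0405% of all tiles. Voom called none, beside 0, 0 and 0 of all 138349 tiles. An unadjusted p under 0.05 was found for 6, 12 and 8 member tiles, beside 5.724%, 8.525% and 8.583% of all tiles. The half-width of the 95% intervals was 0.22 to 0.33 for the windows and had a median of 0.93 for the tiles, so single tiles bound a change far less tightly than windows do.

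The closed starts stayed uncalled in both knockouts. At the distal Runx1 start the difference at D0 was 0.65 in TET_KO (interval -0.57 to 1.87, limma adjusted p = 0.803) and -0.39 in DNMT_KO (-1.61 to 0.82, limma adjusted p = 0.996). At the most upstream Erg start it was 0.26 in TET_KO (-0.90 to 1.42, limma adjusted p = 0.939) and -0.62 in DNMT_KO (-1.78 to 0.55, limma adjusted p = 0.982). The open proximal Runx1 start differed by 0.32 in TET_KO (-0.30 to 0.93, limma adjusted p = 0.815) and by 0.53 in DNMT_KO (-0.08 to 1.15, limma adjusted p = 0.910). Each interval at a closed start includes a log2 change of 1 in at least 1 direction, so a change of 2-fold there is within the error of these libraries.

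Between D0 and D2 none of the 9 windows was called in any line, beside 0.893%, 1.11%, 3.16% and 1.85% of all windows in TET_WT, TET_KO, DNMT_WT and DNMT_KO. At an unadjusted p under 0.05, 1, 0, 2 and 0 member windows differed, beside 8.24%, 11.58%, 15.79% and 13.88% of all windows. Voom called none of the 9, beside 1487, 348, 905 and 1121 of all 48238 windows. One member tile was called. It lies inside Spi1 near its upper end (chr2:91112001-91114000) and fell in DNMT_WT, from 13, 14 and 40 reads at D0 to 1, 7 and 4 at D2. All 3 libraries of D2 were below all 3 of D0 after scaling, and the log2 difference was -2.26 ± 0.44 (SE, limma adjusted p = 0.000569 over 138349 tiles, of which 2.45% were called and 1.81% were lower). In TET_WT it went from 68, 37 and 30 reads at D0 to 11, 10 and 20 at D2, a difference of -1.41 ± 0.44 without overlap (limma adjusted p = 0.110, beside 1.04% of tiles called). In TET_KO it went from 24, 27 and 22 reads to 7 and 22 (-1.09 ± 0.49, limma adjusted p = 0.400, 1.22% called), and in DNMT_KO from 23, 12 and 24 to 16, 12 and 10 (-0.65 ± 0.44, limma adjusted p = 0.555, 2.57% called).

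The Spi1 tile was thus among the open tiles of naive cells in all lines, at mean percentiles of 98.0 to 98.7, and its mean was lower at D2 in all 4. At D2 it was higher in DNMT_KO than in DNMT_WT by 1.65 (interval 0.78 to 2.52, limma adjusted p = 0.141), and without DNMT_WT replicate 2 this passed (2.25, adjusted p = 0.0459). The change from D0 to D2 differed between DNMT_KO and DNMT_WT by 1.61 (0.38 to 2.85, limma adjusted p = 0.692) and between TET_KO and TET_WT by 0.32 (-0.99 to 1.62, limma adjusted p = 1). The call in DNMT_WT was lost without its D2 replicate 1, the library with 1 read (-1.50, limma adjusted p = 0.0551), and with all libraries thinned to the smallest depth (-1.80, limma adjusted p = 0.194). The adjoining tile at the upper end (chr2:91114001-91116000) differed by -1.01 in DNMT_WT (interval -1.73 to -0.30, limma adjusted p = 0.125) and by 0.06 in TET_WT (-0.65 to 0.77, limma adjusted p = 1).

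**Figure D5:**
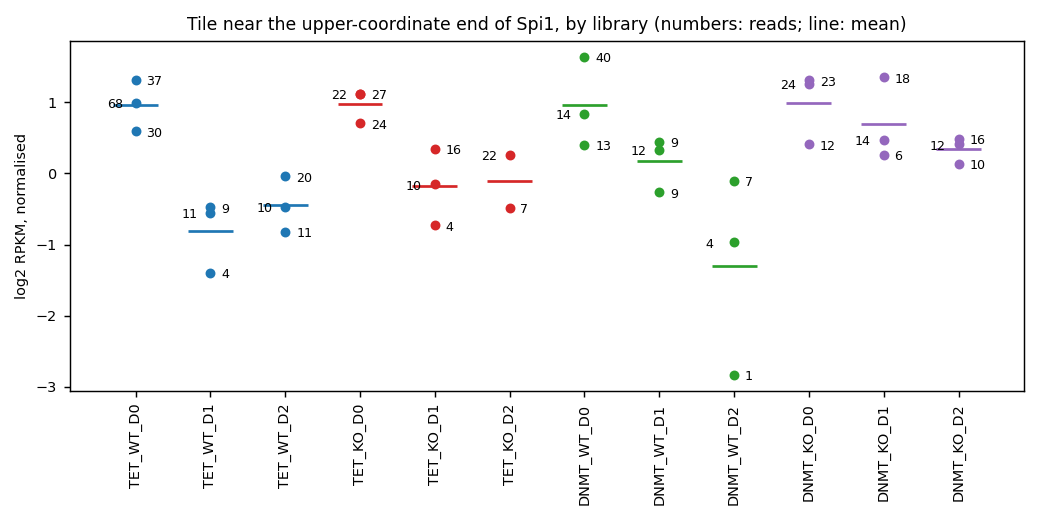
Normalised log2 RPKM (y axis) of the 2-kb tile inside Spi1 in every library (points, with its reads as numbers; bars, group means) of the 12 groups (x axis). The means of the D0 groups lie close together, at 0.96 in DNMT_WT, and DNMT_WT at D2 is lowest at -1.30 with 1, 7 and 4 reads.

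No other member tile was called between D0 and D2. At an unadjusted p under 0.05, 7, 9, 8 and 7 of the 129 tiles differed in TET_WT, TET_KO, DNMT_WT and DNMT_KO. Over all tiles the shares were 8.54%, 10.03%, 13.71% and 13.75%. Voom called 1 in TET_WT, the same Spi1 tile, and 1 in DNMT_WT, beside 3574 and 1147 of all 138349 tiles. The most upstream Erg start differed by 1.64 in DNMT_KO (limma adjusted p = 0.130) and passed without D0 replicate 3 (2.28, limma adjusted p = 0.0414). Replicate 3 was the D0 library with the most reads in that tile. The D0 libraries then left were at or near an empty tile, at percentiles 3.42 and 14.7. The 10-CpG Cbfa2t3 start differed by -1.80 in TET_KO (limma adjusted p = 0.0926). Without D2 replicate 1, which leaves 1 library of TET_KO at D2, the difference was -2.96. For the difference between knockout and parent in the change from D0 to D2, 0 member windows and 0 member tiles were called in either pair, beside 0% and 0% of windows and 0.00145% and 0% of tiles, and voom called none. There, 0 and 0 member windows had an unadjusted p under 0.05, beside 3.42% and 4.38% of all windows. For member tiles these counts were 3 and 6, beside 3.38% and 6.28% of all tiles.

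The mean level of the Meis1 window was lowest at D0 in each line, with D1 given as a level only. Its window was at -0.94 ± 0.07 at D0, -0.40 ± 0.10 at D1 and -0.67 ± 0.11 at D2 in TET_WT (SD, n = 3), and at -0.90 ± 0.05, -0.50 ± 0.07 and -0.71 ± 0.03 (n = 2 at D2) in TET_KO. In DNMT_WT it was at -1.12 ± 0.08, -0.88 ± 0.08 and -0.97 ± 0.04, and in DNMT_KO at -1.02 ± 0.06, -0.82 ± 0.14 and -0.98 ± 0.01. The difference of D2 to D0 was 0.27 in TET_WT (interval 0.06 to 0.49, groups not overlapping, limma adjusted p = 0.361) and 0.03 to 0.18 in the other lines, and none passed. The tile above its start held 48, 45 and 50 reads in TET_WT and 43, 53 and 34 in TET_KO at D1, against 17, 7 and 12 in DNMT_WT and 16, 7 and 13 in DNMT_KO. At D1 it was at the 99.8th percentile in both TET lines and at 89.8 and 95.2 in the DNMT lines, a comparison between line families that was not tested.

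Related genes were read by the same windows. Of 13 paralogues of the members, 1 rose and 1 fell in TET_KO against TET_WT at D0, 0 and 1 at D1, and 1 and 2 at D2, beside 8.27%, 7.3% and 4.58% of all windows called. Lyl1, the closest relative of Tal1, fell on each day (-0.46, -0.39 and -0.55, limma adjusted p = 0.00138, 0.00842 and 0.00138). Gata3, the T cell GATA factor, rose at D0 and D2 (0.42 and 0.51, limma adjusted p = 0.0118 and 0.00841). Tal2, another bHLH relative, fell at D2 (-0.60, limma adjusted p = 0.00726). Of 10 partners, 0 rose and 2, 1 and 1 fell: Cbfb, the non-DNA-binding subunit of RUNX complexes, on each day (-0.57, -0.40 and -0.47, limma adjusted p = 4.10e-05, 0.00283 and 0.00288), and Zfpm1 (FOG1), the GATA cofactor, at D0 (-0.39, limma adjusted p = 0.0275). Lyl1, Cbfb and Zfpm1 are on chromosome 8 like Cbfa2t3, and none of them passed when each library was centred on its chromosome (adjusted p from 0.627 to 0.991). Centring also ended the Gata3 calls (0.32 and 0.38, adjusted p = 0.160 and 0.197) and kept that of Tal2 (-0.64, adjusted p = 0.0176).

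Of 23 other genes of blood and endothelium, 1 rose and 1 fell in TET_KO on each day, beside the same 8.27%, 7.3% and 4.58% of all windows. Vav1, a guanine nucleotide exchange factor of blood cells on chromosome 17, rose by 0.96, 0.93 and 0.91 (limma adjusted p = 7.73e-07, 1.63e-06 and 1.73e-05), and by 0.85, 0.78 and 0.80 with chromosomes centred (adjusted p = 3.12e-05, 0.000115 and 0.000459). Klf1, the erythroid factor on chromosome 8, fell by 0.37, 0.41 and 0.64 (limma adjusted p = 0.0259, 0.0119 and 0.000755) and did not pass when centred. From D0 to D2, Kit, the receptor for stem cell factor, fell in TET_WT, TET_KO, DNMT_WT and DNMT_KO by 0.59, 0.53, 0.89 and 0.75 (limma adjusted p = 0.00612, 0.0379, 1.30e-05 and 0.000172), the 1 of 23 genes called in each line, beside 0.893%, 1.11%, 3.16% and 1.85% of all windows. Tal2 rose in TET_WT (0.50, limma adjusted p = 0.0446), the 1 of 13 paralogues called, beside the same 0.893%. No paralogue, partner or blood gene was called in DNMT_KO against DNMT_WT on any day.

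The windows of the 9 genes had a median percentile of 46.2, beside 55.1 for the paralogues, 76.9 for the partners, 54.1 for blood and endothelium, 79.2 for naive and 84.7 for core pluripotency genes. Across the 12 group means, the gene on another chromosome whose window followed each member most closely was Pdlim4 for Runx1 (Pearson r = 0.94), Fbll1 for Gata2 (0.91), S100a16 for Tal1 (0.93), Zc3h12b for Lmo2 (0.84), Wdr25 for Spi1 (0.91), Adgrf2 for Fli1 (0.91), Mill2 for Erg (0.90), Spred1 for Meis1 (0.97) and Apol7c for Cbfa2t3 (0.91). Each is the highest of all protein-coding genes on other chromosomes, over 12 groups that come from 4 lines. Such a search favours high r by itself, and whether unrelated windows would reach these values was not tested.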

How the data were processed

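ATAC-seq of 35 libraries was used. The submitters' processing notes name Trim Galore 0.6.5, cutadapt 2.3, Bowtie2 2.4.1 and the mouse build GRCm38. The authors deposited log2 RPKM per 2-kb tile, per the file headers. Values were whole multiples of 1 read within 0.01 read, with an empty tile at 0.9 read, so reads could be recovered. No source used here says whether cut sites were shifted or duplicates removed. Tested were 138349 tiles (the highest 10% by mean log2 RPKM on autosomes and X, and tiles with gene starts) and 48238 gene windows. After quantile normalisation, limma 3.58.1 in R 4.3.3 fitted 1 mean for each of 12 groups (23 residual degrees of freedom, variance trend on the mean), and p was adjusted by Benjamini-Hochberg over all tiles or windows of a comparison. The fit was tested on simulated data. Percentiles were computed in Python 3.11.15. Named tiles were each member's start, its highest tile and every called tile. For the related lists, at most 3 called genes per comparison were named, by size of change. Where no strand was known, both gene ends stood for the start. The members and lists were chosen with earlier results of these data known. Alternatives covered scaling, filters, pseudocount, window size, depth, covariates, voom and leaving out each replicate.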

Additional observations from a re-analysis of the deposited data

How the results depend on the processing

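The counts of called member tiles and windows were recomputed under the other settings: 391 stayed within 1.5 times the reported count and 35 did not. Most reported counts were 0, and for these it means only that 0 stayed 0. Each reported call was lost under some settings, as given below. For tiles, the TET_KO comparison at D1 gave 1 call in place of 0 with values as deposited, with the share of reads in open tiles as a covariate and with the highest 5% of tiles (Cbfa2t3, chr8:122618001-122620000). D2 against D0 in DNMT_WT gave 2 in place of 1 with that covariate (a Meis1 flank tile, 1.22) and 0 with thinned reads. D2 against D0 in TET_WT gave 1 in place of 0 with voom, with only the 2 groups fitted and with a pseudocount of 0.5, each time the Spi1 tile. For windows, the single call at D1 in TET_KO fell to 0 with values as deposited, chromosomes centred, reads thinned or 5 kb each side, and that at D2 fell to 0 with values as deposited, chromosomes centred or 5 kb each side. As deposited, the Cbfa2t3 difference was -0.64 at D1 and -0.61 at D2 (limma adjusted p = 0.0767 and 0.399), where the median of all windows at D1 lay at -0.17. The count at D0 was 1 in place of 0 with voom and with the upper 50% of windows. The 1 result that reversed was Cbfa2t3 in TET_KO at D1, at 0.11 with chromosomes centred, where the chromosome's own shift is removed by construction; for the other changes the cause was not tested. Without 1 replicate each, tile calls ranged from 0 to 1 for TET_KO at D0 and D1, DNMT_KO at D2, and D2 against D0 in DNMT_WT and DNMT_KO. Tile counts from fits that leave 1 library of TET_KO at D2 are not given. Window calls ranged from 0 to 1 for TET_KO at D0, D1 and D2, and from 0 to 2 for DNMT_KO at D1. Leaving out tiles with the starts of other genes, added after seeing the data, kept all window counts within 1.5 times. No separate window count without a filter was possible, since windows had none. Over all genes the called windows in TET_KO against TET_WT were 3990, 3522 and 2209 at D0, D1 and D2, and ranged from 270 to 6639, from 478 to 4071 and from 88 to 4567 over the settings that kept all libraries. With chromosomes centred, 324 rose and 268 fell at D0, 269 and 209 at D1 and 182 and 171 at D2. The called tiles between D0 and D2 in DNMT_WT were 3390 and ranged from 812 with thinned reads to 3863.

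Same-numbered replicates were not shown to pair: their deviations correlated from -0.13 to 0.16, and 9 of 28 pairs correlated best with their own number. With the replicate number as a block, 1 window was called for TET_KO at D0 in place of 0 (Cbfa2t3, adjusted p = 0.0460 by limma), and no other count of member calls moved by over 1.5 times.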
